A study of Mus musculus with 12 samples.

Results

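The acute-phase protein genes are a set of plasma and innate-immune proteins whose transcription rises in inflammation. They were taken by gene symbol from the deposited gene table as Saa1, Saa2, Saa3, Saa4, Orm1, Orm2, Hp, Lcn2, Crp and Apcs, 10 of the 24421 genes in the table. All 10 passed the filter on low counts that left 17411 genes for testing. Alb, the albumin gene, was followed beside them as the constitutive liver gene.

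The study sequenced RNA of mouse pancreatic islets in 12 libraries that form 6 groups of 2, lettered A and B. Control mice were Bmal1fl/fl, that is, both copies of the clock gene Bmal1 carry loxP sites and there is no Cre. Knockout mice were Bmal1fl/fl RIPCreERT/+, with the same floxed alleles plus a Cre-oestrogen receptor fusion under the rat insulin promoter, which directs recombination to beta cells. Each genotype was sampled 24 h after citrate buffer (vehicle), 24 h after a submaximal dose of streptozotocin (STZ, a toxin that enters beta cells), and 4 wk after STZ. The vehicle libraries are all labelled 24 h, so a contrast of 4 wk with vehicle mixes treatment and time. Age, sex and strain background are not given in the sources used here, nor is the dose of STZ or the use of tamoxifen. Nothing in the labels states whether A and B are separate animals, and p-values therefore cover no more than the spread between the libraries at hand, which may be technical.

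Acute-phase proteins are made mostly by hepatocytes. Cytokines of the interleukin-6 family act on them through STAT3, and interleukin-1 and tumour necrosis factor act through NF-kB and C/EBP factors. SAA1 and SAA2 are the strongly inducible serum amyloid A proteins carried on high-density lipoprotein, SAA3 is made largely outside the liver by macrophages, fat and epithelia, and SAA4 is the constitutive member. ORM1 and ORM2 (orosomucoids, or alpha-1-acid glycoproteins) are plasma carriers of small lipophilic molecules, and haptoglobin (Hp) binds free haemoglobin. LCN2 binds the iron-carrying siderophores of bacteria and is made by neutrophils and epithelia as well as hepatocytes. CRP and APCS (serum amyloid P) are pentraxins, of which APCS is the inducible one in mice. Albumin itself is a negative acute-phase protein, lowered in the liver during inflammation, and its gene is a standard hepatocyte marker.

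Total counts ran from 101772241 to 127207523 per library. Coverage of exon 8 of Arntl, the gene for BMAL1, relative to its own transcript was 1.56 to 1.99 in the 6 control libraries and 0.627 to 1.37 in the 6 knockout libraries, with no overlap. Levels are given as CPM, a gene's count relative to its library's TMM-scaled total. Total Arntl differed between genotypes in a direction that changed with condition. Under vehicle it was at 8.36 to 8.79 CPM in control and 17.8 to 19.9 CPM in knockout libraries. At 24 h after STZ it was at 10.8 to 11.2 CPM in control and 8.88 to 9.43 CPM in knockout. The 4 wk libraries had 20.4 to 20.6 CPM in control and 11.3 to 11.6 CPM in knockout. Beta-cell markers were present in every library, with none of 12 at 0, and Ins2 was lowest in knockout islets 24 h after STZ at 13081 to 15342 CPM. In bulk RNA, fewer cells of a type and less RNA per cell cannot be told apart.

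Positions are those of the deposited transcript models in mm10. Saa3, Saa4, Saa1 and Saa2 lie in this order within 1 cluster on chromosome 7, between 46711998 and 46754314. Saa3, Saa4 and Saa1 are on the minus strand and Saa2 on the plus strand, head to head with Saa1. Orm1 (63344566 to 63348162) and Orm2 (63362449 to 63365877) flank Orm3 on chromosome 4, plus strand. Crp (172698056 to 172699966, plus) and Apcs (172893961 to 172895054, minus) are neighbours on chromosome 1. Lcn2 lies on chromosome 2 (32384637 to 32387739, minus), Hp on chromosome 8 (109575128 to 109579172, minus) and Alb on chromosome 5 (90460889 to 90476603, plus). No exon of these genes overlapped an exon of another gene on either strand in the deposited annotation.

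Near-identical copies limit 2 pairs. Saa1 and Saa2 transcripts were 94.4% identical when aligned but shared no stretch of 100 bases, the labelled read length. Orm1 and Orm2 were 91.0% identical and shared 47 of 676 such stretches (6.95%), so part of their reads could be split between them by the authors' quantification.

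Upstream sequence is shown for 5 genes, picked after their values were seen. Saa1 and Saa2 are a near-copy pair that moved together, Orm2 had the largest called log2 rise in control islets, and Saa3 and Lcn2 are the members that did not rise with Alb in control islets. Each run is the 250 bases before the start site on the gene's own strand, 5′ to 3′, from RefSeq (GRCm38.p6), which holds 8 of the 10 members; the table gives no promoter for Orm1 or Hp. Capitals mark matches to the C/EBP letters TTGCNNAA on either strand. The windows are chr7:46742981-46743230 (minus strand) for Saa1, chr7:46751583-46751832 (plus) for Saa2, chr4:63362199-63362448 (plus) for Orm2, chr7:46715677-46715926 (minus) for Saa3 and chr2:32387740-32387989 (minus) for Lcn2.
Saa1: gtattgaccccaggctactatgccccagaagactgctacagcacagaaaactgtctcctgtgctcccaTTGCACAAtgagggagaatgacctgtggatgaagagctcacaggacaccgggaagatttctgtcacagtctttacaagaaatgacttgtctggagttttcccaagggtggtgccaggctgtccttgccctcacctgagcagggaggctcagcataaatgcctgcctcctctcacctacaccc
Saa2: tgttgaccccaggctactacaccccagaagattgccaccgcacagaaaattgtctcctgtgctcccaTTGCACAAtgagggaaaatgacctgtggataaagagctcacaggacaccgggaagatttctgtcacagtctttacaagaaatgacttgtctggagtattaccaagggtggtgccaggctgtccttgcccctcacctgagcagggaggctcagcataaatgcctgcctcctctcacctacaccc
Orm2: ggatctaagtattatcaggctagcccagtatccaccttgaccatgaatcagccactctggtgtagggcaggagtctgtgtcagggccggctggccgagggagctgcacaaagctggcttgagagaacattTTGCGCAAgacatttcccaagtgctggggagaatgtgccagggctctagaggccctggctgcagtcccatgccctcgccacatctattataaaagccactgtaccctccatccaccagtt
Saa3: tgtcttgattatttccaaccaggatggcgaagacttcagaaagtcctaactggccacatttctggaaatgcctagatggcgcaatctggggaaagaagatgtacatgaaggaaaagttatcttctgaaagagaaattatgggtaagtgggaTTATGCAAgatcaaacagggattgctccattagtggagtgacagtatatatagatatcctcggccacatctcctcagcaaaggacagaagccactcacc
Lcn2: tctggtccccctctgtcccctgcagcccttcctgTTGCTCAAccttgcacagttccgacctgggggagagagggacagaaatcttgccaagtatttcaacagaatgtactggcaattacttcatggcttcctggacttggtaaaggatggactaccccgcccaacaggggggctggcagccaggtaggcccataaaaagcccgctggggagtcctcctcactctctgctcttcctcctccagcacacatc
Over aligned bases the windows of Saa1 and Saa2 were 95.6% identical, with 238 identical and 11 mismatched positions. Both held TTGCACAA, starting at position -182 from the Saa1 start and -183 from the Saa2 start. Orm2 held TTGCGCAA at -120 and Lcn2 held TTGCTCAA at -216, and Saa3 held TTATGCAA, a match on the other strand, at -99. Saa4 held 2 such matches, and Apcs and Crp held none, so 6 of 8 members held the C/EBP letters, against 9.56% of all 32851 promoter windows of the same length. The STAT letters TTCNNNGAA were found in 1 member, Apcs (7.02% of all windows), and the NF-kB consensus in 0 of 8 (7.25% of all windows). No matches overlapped, and a match of letters describes the window and nothing more.

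In knockout islets 24 h after STZ, the group where the summed level of the members was highest, Hp led at 779 ± 65 TPM (SD, n = 2), a unit that adjusts for transcript length. Orm1 followed at 399 ± 30 TPM, then Saa1 at 98.4 ± 8.5 TPM. The next 3 were Saa4 at 67.5 ± 2.6, Apcs at 64.3 ± 5.6 and Saa3 at 52.6 ± 4.5 TPM, and Orm2 came after at 51.3 ± 1.2 TPM. The neighbours Saa4 and Apcs, and Saa3 and Orm2, did not differ beyond their spread. Crp stood at 44.9 ± 2.9 TPM, and Saa2 (37.8 ± 2.5 TPM) and Lcn2 (26.9 ± 2.4 TPM) were the least abundant. Alb stood at 6621 TPM there. In control vehicle islets the order was different: Lcn2 led at 7.02 ± 0.83 TPM, Saa3 was next at 4.09 ± 0.16 TPM, and Orm2 was last at 0.117 ± 0.025 TPM. Values from here on are CPM unless TPM is named, and log2 differences are fitted from counts.

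**Figure D1:**
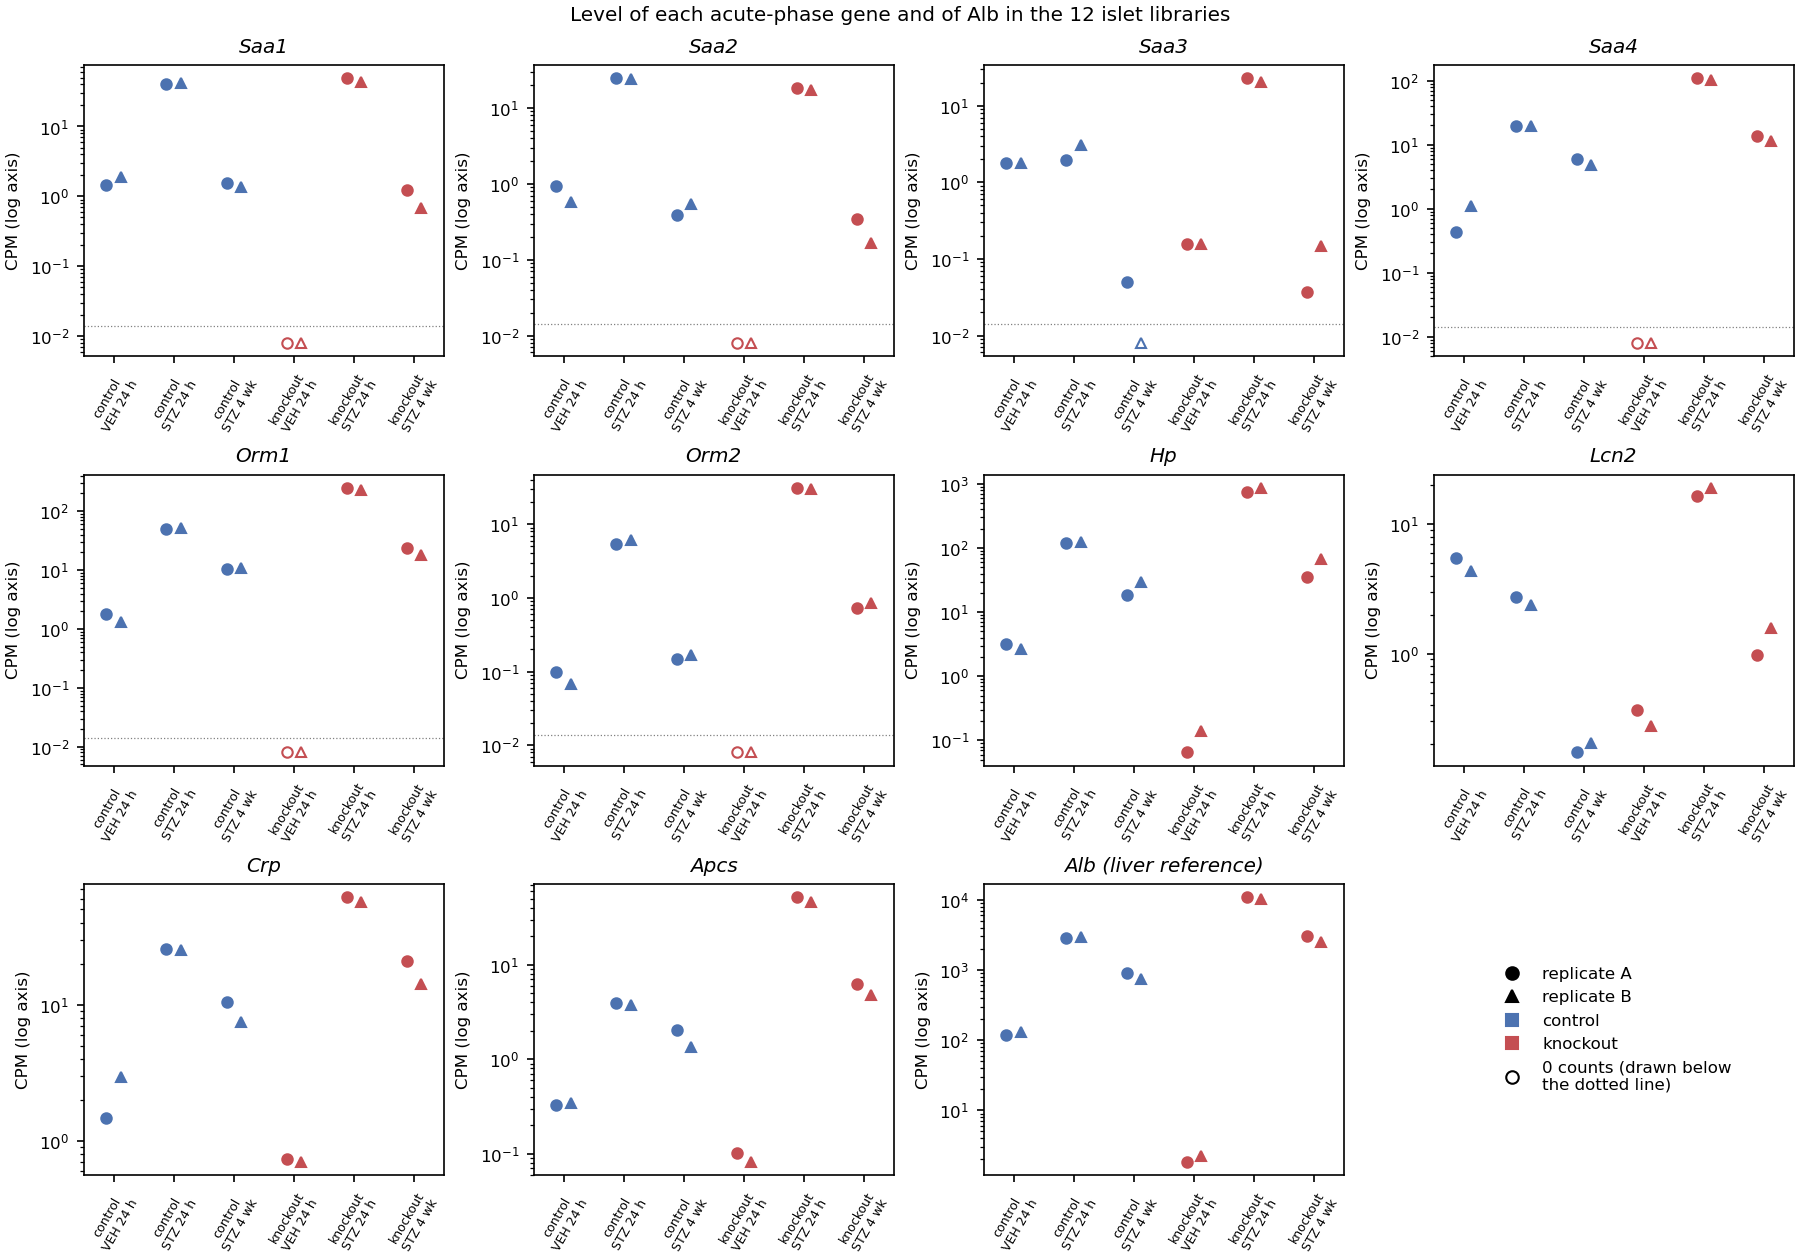
Level of each acute-phase gene and of Alb in CPM (log axis) in the 12 islet libraries, with circles for A, triangles for B, blue for control and red for knockout. Open symbols under the dotted line are libraries with 0 counts. Saa1, Saa2, Saa4, Orm1 and Orm2 are at 0 in both knockout vehicle libraries, and each member has its highest group mean 24 h after STZ within a genotype, except Lcn2 in control, which is highest under vehicle.

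Under vehicle, all 10 members were lower in knockout than in control islets (edgeR quasi-likelihood test, Benjamini-Hochberg adjusted p under 0.05; 7.68% of all tested genes were lower). Levels were low in both genotypes. Alb was at 117 and 129 CPM in the control libraries and at 1.84 and 2.22 in the knockout libraries (log2 -5.92, SE 0.18, adjusted p = 4.5e-07). The members' median log2 difference was -5.57, beside 0 over all tested genes. That median lies between the fitted values of Orm2 (-6.28) and Hp (-4.87). Orm2 had no count in knockout, so its fitted value, and with it the median, depends on the prior count that edgeR adds. The nominal bound for Orm2 given below equals log2 -2.85.

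Serum amyloid genes of the hepatocyte type were detected in control vehicle islets and had no count in knockout vehicle islets. Saa1 was at 1.46 and 1.92 CPM in control and at 0 in both knockout libraries, at least 147-fold lower when 3 counts over the group are taken as the limit. That limit is nominal here and in all bounds below. At the labelled read length 1 read pair adds more than 1 count, so a limit of 3 read pairs would be higher and the folds smaller. Saa2, at 0.925 and 0.580 in control and 0 in knockout, was at least 65.5-fold lower. Saa4 was at 0.435 and 1.09 in control and 0 in knockout, at least 66.5-fold lower. Among the carriers, Orm1 was at 1.82 and 1.3 in control and 0 in knockout (at least 135-fold lower) and Orm2 at 0.0979 and 0.0683 in control and 0 in knockout (at least 7.23-fold lower). A nominal limit of 3 counts in a library equals 0.0216 CPM in knockout library A and 0.0245 CPM in B.

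The other 5 members were detected in all 4 vehicle libraries. Hp was at 3.23 and 2.67 CPM in control and 0.0649 and 0.139 in knockout (log2 -4.87, SE 0.47). Lcn2, the most abundant member per length in these control libraries, was at 5.5 and 4.37 in control and 0.368 and 0.278 in knockout (log2 -3.93, SE 0.29, adjusted p = 5.42e-05). Saa3 was at 1.80 and 1.78 in control and 0.159 and 0.155 in knockout (log2 -3.50, SE 0.60). The pentraxins differed least, Apcs with log2 -1.85 (SE 0.30, 0.326 and 0.341 against 0.101 and 0.0817 CPM) and Crp with log2 -1.61 (SE 0.33, adjusted p = 0.016, 1.48 and 2.96 against 0.743 and 0.703 CPM). The groups did not overlap for any member. The Crp call was lost without control vehicle B (log2 -1.03, adjusted p = 0.0951) or without either knockout vehicle library (adjusted p = 0.0843 and 0.0953), and the Saa3 call without knockout vehicle A (adjusted p = 0.0502).

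In control islets 24 h after STZ, 8 of 10 members were higher than under vehicle (5.41% of all tested genes were higher) and Alb rose to 2853 and 2932 CPM (log2 4.55, SE 0.17, adjusted p = 1.07e-06). Saa3 and Lcn2 did not pass. The members' median log2 difference was 4.64, beside 0.02 over all tested genes.

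Orm2 had the largest log2 difference, 6.09 (SE 0.24), from 0.0979 and 0.0683 to 5.39 and 6.12 CPM. Hp went from 3.23 and 2.67 to 120 and 126 CPM (log2 5.38, SE 0.39, adjusted p = 3.61e-05). Orm1 reached 50.7 and 51.5 CPM (log2 5.03, SE 0.22). These 3 plasma proteins thus stood in every STZ library above every vehicle library. The hepatocyte-type serum amyloids were close to Alb in size of change, with log2 5.0 (SE 0.38) for Saa2, 4.68 (SE 0.37) for Saa4 and 4.60 (SE 0.29) for Saa1, which reached 40.2 and 41.6 CPM. The pentraxins Crp (to 25.6 and 25.2 CPM) and Apcs (to 3.94 and 3.75 CPM) both had log2 3.52, with SE 0.34 and 0.25.

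Saa3 and Lcn2 behaved otherwise in these control islets. Saa3 was at 1.80 and 1.78 CPM under vehicle and at 1.93 and 3.03 after STZ (log2 0.47, SE 0.51, adjusted p = 0.659). Lcn2 was at 5.5 and 4.37 under vehicle and at 2.71 and 2.38 after STZ (log2 -0.96, SE 0.25, adjusted p = 0.0603). Both STZ libraries were thus below both vehicle libraries for Lcn2, without passing the threshold. Lcn2 did pass in the DESeq2 Wald test (adjusted p = 0.00516), with scaling to endocrine genes (log2 -1.09, adjusted p = 0.0276) and without either knockout STZ 4 wk library (adjusted p = 0.0187 and 0.0191).

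In knockout islets 24 h after STZ, all 10 members were higher than under vehicle (30.1% of all tested genes were higher), and Alb went from 1.84 and 2.22 to 10761 and 10130 CPM (log2 12.33, SE 0.23). The members at 0 under vehicle rose by nominal bounds that reflect those zeros: at least 20607-fold for Orm1 (to 248 and 226 CPM), 9227-fold for Saa4, 4011-fold for Saa1, 2669-fold for Orm2 and 1549-fold for Saa2. Hp reached 756 and 863 CPM (log2 12.96, SE 0.55). Apcs reached 51.5 and 46.2 CPM (log2 9.04, SE 0.31), Saa3 22.7 and 20.4 CPM (log2 7.09, SE 0.67) and Crp 61.1 and 56.6 CPM (log2 6.34, SE 0.38). Lcn2 had the smallest log2 difference, 5.77 (SE 0.31), to 16.5 and 19.0 CPM.

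The change from vehicle to STZ differed between genotypes for every member: the difference of the 2 log2 changes at 24 h was above 0 for 10 of 10 (21.1% of all tested genes). All 10 were lower in knockout under vehicle, and that gap is part of each value. For Saa1 and Saa2 it is nearly all of it, since knockout and control did not differ 24 h after STZ (log2 0.17 and -0.44). It was 6.62 (SE 0.81) for Saa3 and 6.73 (SE 0.40) for Lcn2, the 2 members that did not pass in control. The smallest was that of Crp, 2.83 (SE 0.45, adjusted p = 0.00122), and Alb had 7.77 (SE 0.23). The same contrasts relative to Alb are given with the results flagged for a closer look. Because this contrast contains the knockout vehicle libraries, where 5 members are at 0, its value depends for them on the prior count that edgeR adds.

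Set side by side at 24 h after STZ, knockout islets held more of 8 members than control islets (23.7% of all tested genes were higher), and 0 were lower. Alb was higher too, 10761 and 10130 against 2853 and 2932 CPM (log2 1.85, SE 0.15, adjusted p = 2.49e-05). The members' median log2 difference was 2.42. Saa1 and Saa2 did not pass.

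Apcs, the inducible pentraxin of mice, had the largest difference, at 51.5 and 46.2 against 3.94 and 3.75 CPM (log2 3.67, SE 0.23, adjusted p = 6.79e-06). Saa3 was at 22.7 and 20.4 against 1.93 and 3.03 CPM (log2 3.12, SE 0.54). Lcn2 was at 16.5 and 19.0 against 2.71 and 2.38 CPM (log2 2.80, SE 0.27). These 3 had the largest log2 differences of the 10. Hp differed by log2 2.72 (SE 0.34), Saa4 by 2.44 (SE 0.32; 108 and 104 against 19.7 and 19.5 CPM), Orm2 by 2.41 (SE 0.18; 31.0 and 30.4 against 5.39 and 6.12 CPM) and Orm1 by 2.21 (SE 0.19). Crp had the smallest called difference, log2 1.21 (SE 0.30, adjusted p = 0.0114). Its call was lost without control STZ 24 h A (adjusted p = 0.0634), control STZ 24 h B (0.0682) or knockout STZ 24 h A (0.0571).

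Saa1 and Saa2 were at like levels in the 2 genotypes while Alb and the rest of the set were not. Saa1 was at 48.6 and 43.6 CPM in knockout and at 40.2 and 41.6 in control (log2 0.17, SE 0.25, adjusted p = 0.611). Saa2 was at 18.5 and 17.1 CPM in knockout and at 24.5 and 23.9 in control (log2 -0.44, SE 0.31, adjusted p = 0.293). Every knockout library was below every control library for Saa2 and above for Saa1, by gaps that did not pass. The direction for Saa2 depended on the scaling: with libraries scaled to pan-endocrine genes, which moved the median of all genes by 1.91, the difference was 1.47 (adjusted p = 0.00266), below that median, and that of Saa1 was 2.08 (adjusted p = 0.000113).

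**Figure D2:**
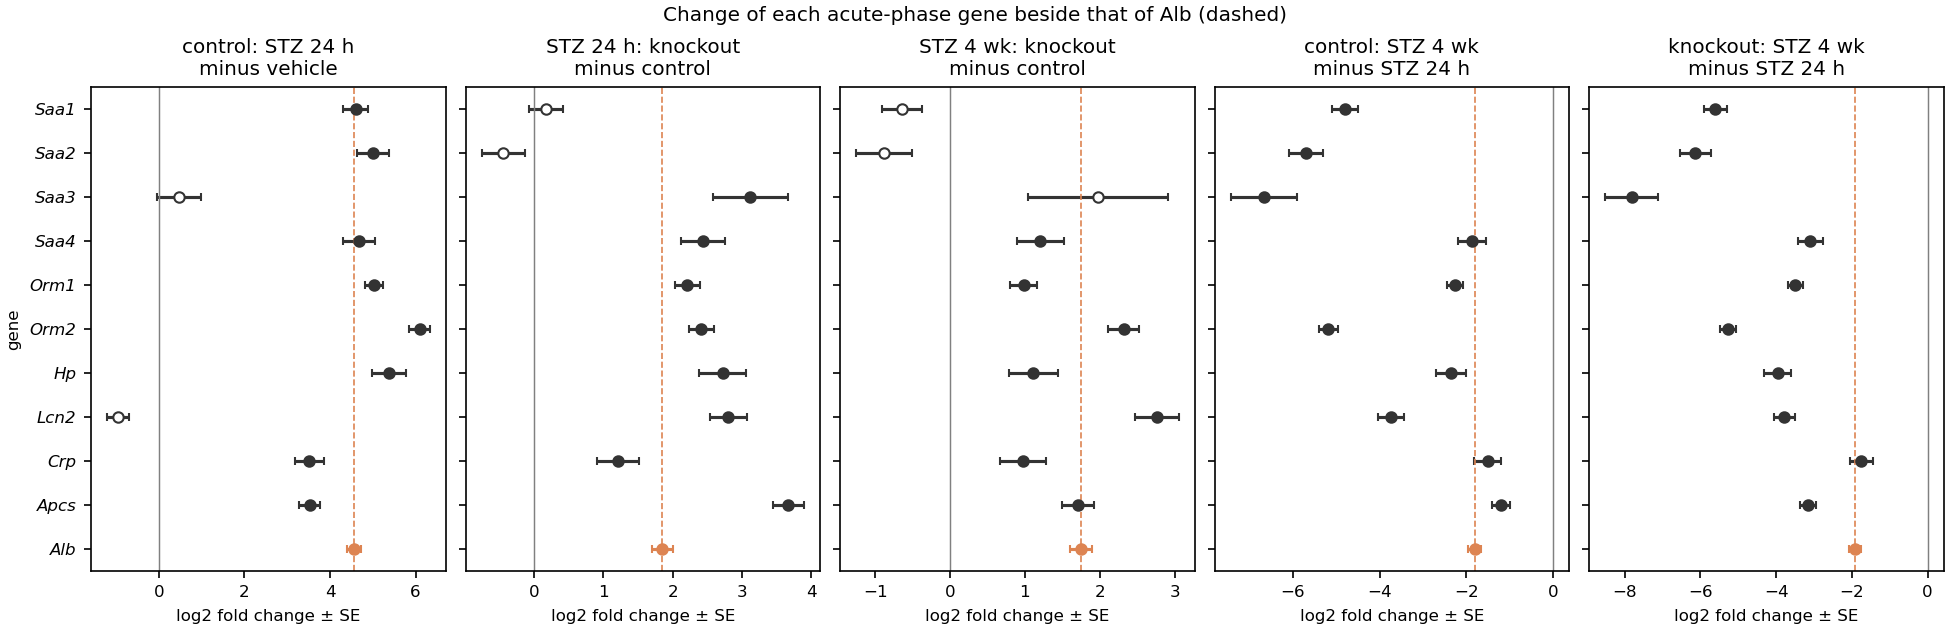
Fitted log2 fold change ± SE of each acute-phase gene (black) and of Alb (orange, dashed line) in 5 comparisons; filled symbols passed an adjusted p of 0.05. Saa3 and Lcn2 sit far left of Alb in control islets after STZ, and Saa1 and Saa2 sit left of Alb in both comparisons of knockout with control.

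From 24 h to 4 wk after STZ, all 10 members fell in control islets (4.22% of all tested genes were lower) and all 10 fell in knockout islets (15.5%). Alb fell by a like amount in both, by 1.81 on the log2 scale in control (SE 0.15) and by 1.91 in knockout (SE 0.15). The members' median log2 change was -3.05 in control and -3.87 in knockout.

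The steepest falls were those of Saa3, Saa2, Saa1 and Orm2, in both genotypes. In control islets Saa3 went from 1.93 and 3.03 CPM to 0.0493 and 0 (log2 -6.66, SE 0.77), and in knockout islets from 22.7 and 20.4 to 0.0367 and 0.148 CPM (log2 -7.81, SE 0.70). Saa2 reached 0.394 and 0.539 CPM in control (log2 -5.69, SE 0.39) and 0.349 and 0.164 CPM in knockout (log2 -6.13, SE 0.40). Saa1 reached 1.57 and 1.38 CPM in control (log2 -4.79, SE 0.29) and 1.22 and 0.680 CPM in knockout (log2 -5.61, SE 0.31). In control, Saa1 was thus again near its vehicle level of 1.46 and 1.92 CPM. In knockout it stayed above its own vehicle libraries, which had 0 counts. Orm2 fell to 0.148 and 0.167 CPM in control (log2 -5.18, SE 0.21) and to 0.725 and 0.859 CPM in knockout (log2 -5.27, SE 0.20). Lcn2 changed by log2 -3.75 (SE 0.30) in control and -3.79 (SE 0.28) in knockout.

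Others fell by less. Saa4, the constitutive amyloid A gene, went to 5.89 and 4.87 CPM in control (log2 -1.87, SE 0.32) and to 13.5 and 11.3 CPM in knockout (log2 -3.10, SE 0.33). Hp changed by log2 -2.36 in control (SE 0.34) and -3.96 in knockout (SE 0.36), and Orm1 by -2.27 (SE 0.19) and -3.50 (SE 0.20). Apcs changed by log2 -1.20 (SE 0.21) in control and -3.16 (SE 0.22) in knockout, and Crp by -1.51 (SE 0.31) and -1.75 (SE 0.31). The member nearest to Alb in its fall was Saa4 in control and Crp in knockout. Whether the fall differed between genotypes was not tested. In control, the Saa4 call was lost without any 1 of the 4 control STZ libraries (adjusted p = 0.0634 to 0.0953), the Crp call without any of these or without knockout STZ 24 h A or B (0.0555 to 0.153), and the Apcs call without control STZ 24 h A or B or control STZ 4 wk B (0.0572 to 0.0809).

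At 4 wk after STZ, 7 of 10 members were higher in knockout than in control islets (19.9% of all tested genes were higher), 0 were lower, and Alb was higher by 1.75 (SE 0.15; 3030 and 2515 against 906 and 743 CPM). Lcn2 was at 0.972 and 1.59 CPM in knockout and 0.173 and 0.204 in control (log2 2.76, SE 0.29, adjusted p = 0.000168). Orm2 followed with log2 2.32 (SE 0.20) and Apcs with 1.71 (SE 0.21; 6.19 and 4.76 against 2.01 and 1.33 CPM). Saa4 (log2 1.20, SE 0.31), Hp (1.11, SE 0.33; 35.7 and 68.2 against 18.6 and 29.4 CPM), Orm1 (0.98, SE 0.18) and Crp (0.97, SE 0.30, adjusted p = 0.0431) had smaller differences.

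The remaining 3 were amyloid A genes. Saa1 was at 1.22 and 0.680 CPM in knockout against 1.57 and 1.38 in control (log2 -0.64, SE 0.27, adjusted p = 0.124), and Saa2 had log2 -0.88 (SE 0.37, adjusted p = 0.127). Saa1 passed as lower when the library letter was a term within each condition, shared by the 2 genotypes (-0.68, adjusted p = 0.0149). Both passed as lower in knockout without knockout STZ 4 wk A (Saa1 -1.11, adjusted p = 0.009; Saa2 -1.51, adjusted p = 0.0229). Saa3 was at 0.0367 and 0.148 against 0.0493 and 0 CPM (log2 1.97, SE 0.94, adjusted p = 0.163), levels of a few counts. It passed in the DESeq2 Wald test (adjusted p = 0.0268), with endocrine scaling (log2 2.63, adjusted p = 0.0393) and when library A of control STZ 4 wk was left out (log2 6.46, adjusted p = 0.0291).

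Of the 7 calls at 4 wk, those of Lcn2, Orm2, Apcs and Orm1 held without any 1 library. The Hp call was lost without any 1 of the 2 control vehicle libraries, the 4 STZ 24 h libraries, control STZ 4 wk A and knockout STZ 4 wk B (adjusted p = 0.0538 to 0.177). The Crp call was lost without any 1 of 9 libraries, all but the control vehicle pair and knockout STZ 4 wk B (adjusted p = 0.0557 to 0.196), with DESeq2 size factors (0.0501), with total-count scaling (0.0649) and with a single replicate block (0.0648), but not with the letter as a term within each condition. For Saa4 it was lost without control STZ 4 wk A or B, knockout STZ 24 h A or B, or knockout STZ 4 wk A (adjusted p = 0.0506 to 0.109), so that only 4 members were called without knockout STZ 24 h A or B.

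Compared with vehicle at 24 h, control islets at 4 wk after STZ were higher for 5 members (4.98% of all tested genes) and lower for 2 (4.01%). Hp (log2 3.02, SE 0.36), Saa4 (2.82, SE 0.35), Orm1 (2.77, SE 0.20), Apcs (2.32, SE 0.24) and Crp (2.01, SE 0.32) were higher, as was Alb (2.74, SE 0.16). The 2 that were lower were Saa3 (log2 -6.19, SE 0.77) and Lcn2 (log2 -4.70, SE 0.31), which had not risen at 24 h either. Saa1, Saa2 and Orm2 did not pass, with log2 -0.20, -0.69 and 0.91, although Orm2 did with total-count scaling (1.29, adjusted p = 0.0124). In knockout islets 9 members were higher at 4 wk than under vehicle (24.1% of all tested genes), and Saa3 was at log2 -0.72 (SE 0.70, adjusted p = 0.474). The difference of these changes between genotypes was above 0 for 10 of 10 members (18.7% of all tested genes), and was lost for Saa3 without knockout STZ 4 wk B (adjusted p = 0.0682). The 4 wk and 24 h contrasts share their vehicle libraries.

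To ask which members moved more or less than the liver reference, the same model was fitted with each library scaled to its Alb count. In control islets 24 h after STZ against vehicle, 91.8% of all tested genes were lower relative to Alb and 0.839% were higher. Among the members, 4 were lower relative to Alb, 1 was higher and 5 did not pass. Saa1 (log2 0.05, SE 0.26), Saa4 (0.15, SE 0.36), Saa2 (0.43, SE 0.42), Orm1 (0.47, SE 0.27) and Hp (0.81, SE 0.45) did not pass. Orm2 was higher (1.54, SE 0.42, adjusted p = 0.00855). Apcs (-1.03, SE 0.28) and Crp (-1.02, SE 0.29) were lower, and Saa3 (-4.09, SE 0.77) and Lcn2 (-5.52, SE 0.45) far lower. In TPM per 1000 TPM of Alb, Saa1 stood at 45.8 ± 5.8 under vehicle and 47.6 ± 0.22 after STZ, whereas Lcn2 stood at 96.8 ± 23 and 2.11 ± 0.23 (SD, n = 2).

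These ratios depended on 1 library or on the choice of reference for some members. Without control vehicle B, the Orm2 call (log2 1.24, adjusted p = 0.0532) and the Crp call (-0.53, adjusted p = 0.0777) were lost and Saa4 passed as higher (0.86, adjusted p = 0.0218), and without control vehicle A Orm1 passed as higher (0.82, adjusted p = 0.0275). Scaled to 7 other liver-restricted genes in place of Alb (Ahsg, Apoh, Cps1, Cyp2e1, Hpd, Plg and Serpinc1), Saa1 was lower (log2 -0.85, adjusted p = 0.0403) and Orm2 did not pass (0.66, adjusted p = 0.216). The list of 20 constitutive hepatocyte genes includes Ttr and others that islet or intestinal cells also express, so its sum is not liver-restricted. With those summed counts in place of Alb, Crp (1.10, adjusted p = 0.00362) and Apcs (1.13, adjusted p = 0.00577) turned from lower to higher. On that scale Saa1 (2.19), Saa2 (2.63), Saa4 (2.26), Orm1 (2.65) and Hp (2.99) were called higher as well, where 2.22% of all tested genes were higher and 86.0% lower.

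**Figure D3:**
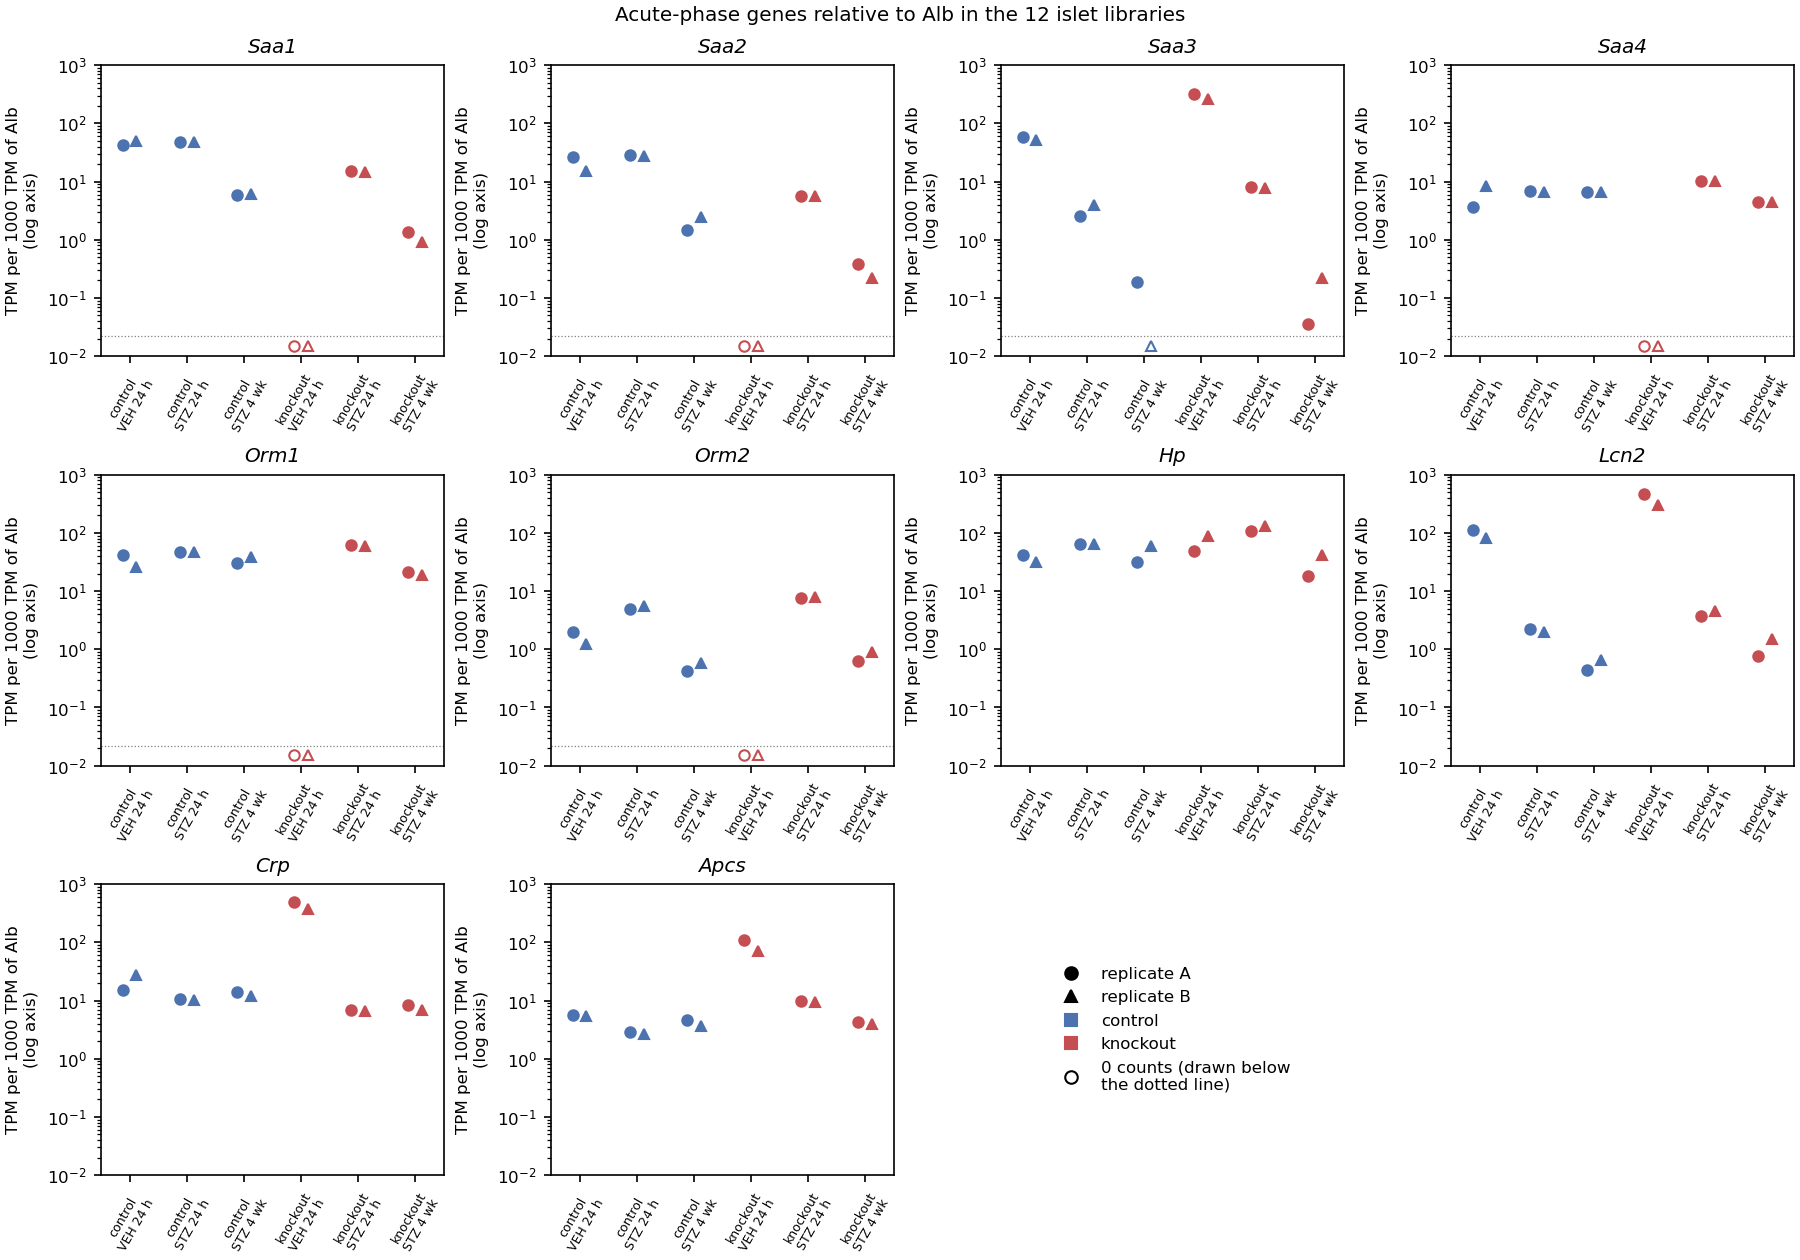
TPM of each acute-phase gene per 1000 TPM of Alb (log axis) in the 12 islet libraries, with circles for A, triangles for B, blue for control, red for knockout and open symbols for 0 counts. In control islets the mean ratio of Saa1 is 45.8 under vehicle and 47.6 at 24 h after STZ while that of Lcn2 goes from 96.8 to 2.11, and Saa1, Saa2 and Orm2 drop from 24 h to 4 wk in both genotypes.

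Between genotypes 24 h after STZ, Saa1 and Saa2 were the 2 members lower relative to Alb in knockout (73.4% of all tested genes were lower), by -1.68 (SE 0.27, adjusted p = 0.00065) and -2.30 (SE 0.43, adjusted p = 0.00163). Saa1 was at 14.8 ± 0.50 TPM per 1000 of Alb in knockout and 47.6 ± 0.22 in control, and Saa2 at 5.71 ± 0.078 and 28.0 ± 1.0. Apcs was higher (log2 1.81, SE 0.27, adjusted p = 0.000291), as was Lcn2 (0.95, SE 0.38, adjusted p = 0.0458), where 5.82% of all tested genes were higher. The Lcn2 call was lost without any 1 of 8 libraries (adjusted p = 0.0518 to 0.175), namely all but the knockout vehicle and knockout STZ 4 wk pairs, and with no filter on low counts (0.0509) or a replicate block (0.0576). Orm1 (0.36), Orm2 (0.56), Saa4 (0.58), Hp (0.87), Saa3 (1.27) and Crp (-0.64) did not pass, although Saa4 and Crp passed without either control vehicle library (adjusted p = 0.0362 and 0.0375 for Saa4, 0.0218 and 0.022 for Crp), and Hp without either knockout STZ 4 wk library (0.0496 and 0.0497) and with the 7 liver genes in place of Alb (0.96, adjusted p = 0.0451). With the letter as a term within each condition, Hp passed as higher (0.86, adjusted p = 0.0025) and Crp as lower (-0.64, adjusted p = 0.0256). With the 20 hepatocyte genes in place of Alb, Saa3 (1.56), Hp (1.16), Saa4 (0.87), Orm2 (0.85) and Orm1 (0.65) passed as higher, beside 7.28% of all tested genes.

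At 4 wk, Saa1 and Saa2 were again lower relative to Alb in knockout (72.7% of all tested genes were lower), by -2.41 (SE 0.28, adjusted p = 0.000111) and -2.68 (SE 0.46, adjusted p = 0.00109). Orm1 (-0.79, SE 0.26, adjusted p = 0.0259) and Crp (-0.78, SE 0.28, adjusted p = 0.0321) were lower too, and Lcn2 was higher (1.03, SE 0.41, adjusted p = 0.0464; 5.54% of all tested genes were higher). The Lcn2 call was lost without any 1 of 9 libraries, all but the knockout vehicle pair and knockout STZ 4 wk A (adjusted p = 0.0545 to 0.315), and with no filter on low counts (0.0516), a replicate block (0.0663) or the 20 hepatocyte genes in place of Alb (0.67, adjusted p = 0.104). The Orm1 call was lost without control STZ 4 wk B or either knockout STZ 4 wk library (0.0626 to 0.132) and the Crp call without any 1 of the 4 STZ 4 wk libraries (0.053 to 0.13), and both when the 7 liver genes replaced Alb (0.0951 and 0.122). Saa4 passed as lower without either control vehicle library (adjusted p = 0.0467 and 0.0483), and Hp without knockout STZ 4 wk B (log2 -1.35, adjusted p = 0.026) and with the letter as a term within each condition (-0.67, adjusted p = 0.0092). Both also passed as lower with the 20 hepatocyte genes in place of Alb (Saa4 -0.91, adjusted p = 0.0169; Hp -0.97, adjusted p = 0.0128; 77.8% of all tested genes were lower).

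Over time, 5 members fell relative to Alb from 24 h to 4 wk in control islets (0.385% of all tested genes were lower) and 9 in knockout islets (1.70%). In control these were Saa3 (-4.91, SE 0.94), Saa2 (-3.85, SE 0.46), Orm2 (-3.35, SE 0.41), Saa1 (-2.98, SE 0.28) and Lcn2 (-1.92, SE 0.42). Saa4, Orm1, Hp, Crp and Apcs did not pass in control, with log2 -0.05, -0.44, -0.50, 0.29 and 0.59. In knockout the 1 member that did not pass was Crp (0.15, SE 0.28), and the falls ran from -1.18 for Saa4 (SE 0.36) to -5.85 for Saa3 (SE 0.87). The Saa4 call was lost without any 1 of the 4 knockout STZ libraries (adjusted p = 0.0559 to 0.0591). Apcs in control passed as higher without either knockout vehicle library (adjusted p = 0.0345 and 0.0451). With the 20 hepatocyte genes in place of Alb, Orm1 (-1.04) and Hp (-1.13) passed as lower in control and Crp (-1.07) in knockout, beside 1.15% and 6.62% of all tested genes.

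In knockout vehicle islets the ratio to Alb rests on 255 and 272 Alb counts. Relative to Alb, Crp (log2 4.34, SE 0.33), Apcs (4.07, SE 0.33), Saa3 (2.42, SE 0.76) and Lcn2 (2.00, SE 0.41) were higher there than in control vehicle islets (92.8% of all tested genes were higher), so the gap between genotypes was smaller for them than for Alb. The Saa3 call was lost without either control vehicle library (adjusted p = 0.0583 and 0.0696). Hp did not pass (1.02, SE 0.54, adjusted p = 0.102) but was higher with the 7 liver genes in place of Alb (2.21, adjusted p = 0.00143) and with the letter as a term within each condition (1.04, adjusted p = 0.0222). With the 7 liver genes, 5 members were called higher (93.8% of all tested genes) and 2 lower (0.247%). The direction changed with the 20 hepatocyte genes, which include Ttr and are not liver-restricted. Alb was 0.119% and 0.214% of their counts in the knockout vehicle libraries. With their sum in place of Alb, Crp (-1.65), Apcs (-1.91), Saa3 (-3.53), Lcn2 (-3.96) and Hp (-4.87) were called lower, beside 6.21% of all tested genes. Of the members at 0, Saa1, Saa2, Saa4 and Orm1 were called lower (0.437% of all tested genes). With the nominal limit of 3 counts over the group, the ratio to Alb was at least 2.41-fold lower for Saa1, 2.23-fold for Orm1 and 1.08-fold for Saa2 and Saa4. For Orm2 the control ratio lies under that limit and no fold is given. A limit of 3 read pairs would be higher than 3 counts, so folds as small as these are no firm bounds. After STZ in knockout, 4 members fell relative to Alb (94.0% of all tested genes): Lcn2 (-6.58, SE 0.48), Crp (-6.0, SE 0.35), Saa3 (-5.24, SE 0.84) and Apcs (-3.29, SE 0.32). The 3 called higher (0.431%) were Orm1, Saa4 and Saa1, with nominal bounds of at least 3.98-fold for Orm1 and 1.78-fold for Saa4, which are likewise not firm. For Saa1 the ratio after STZ lies under the limit that 0 counts allow, so no fold is given. Hp did not pass relative to Alb (0.66, SE 0.53), and was lower with the 7 liver genes in its place (-1.32, adjusted p = 0.0242). With the 20 hepatocyte genes in place of Alb, all 10 members were called higher in knockout islets after STZ (6.29% of all tested genes), with Lcn2 at 1.86, Crp at 2.40, Saa3 at 3.16 and Apcs at 5.14.

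Across the 12 libraries, the level (log2 of CPM + 1) of Crp, Hp, Orm1 and Saa4 went most closely with that of Alb, with Pearson r of 0.947, 0.939, 0.933 and 0.914. Apcs (0.817), Saa1 (0.717), Orm2 (0.699) and Saa2 (0.641) were lower, and Lcn2 (0.526) and Saa3 (0.523) lowest. These are descriptions over 6 groups of 2 that share library and depth. The added 1 CPM flattens differences under 1 CPM, where Orm2, Saa2 and Saa3 lay in several groups. The order of r can therefore reflect level as well. The genes most like each member in the same measure are named next, as descriptions over the same 12 libraries. Alb was not among them for any member. For Saa1 they were Saa2 (0.990), Pkhd1l1 (0.972) and Mettl7a1 (0.948), and Saa2 had Saa1, Pkhd1l1 and Ccdc80. Saa3 was most like Hspb8 (0.989), Fam167b (0.979) and S100a9 (0.978), the last a neutrophil and monocyte calcium-binding protein. Saa4 was most like Cyp2a12, Itih1 and Serpina3m, Orm1 like Glyat, Hgd and Azgp1, Hp like Hpx, Orm1 and F2, and Crp like Cfhr2, Hgd and Hc. Orm2 had Tat (0.995), Folr2 (0.984) and Prg4 (0.984), Apcs had Cxcl12, Nnmt and Lyz2 (0.993, 0.993 and 0.991), and Lcn2 had Sptssb (0.988), Nfkbia (0.986) and Habp2 (0.980).

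Other positive acute-phase genes were read from a list of 32 that includes fibrinogen, complement and serpin genes. In control islets 24 h after STZ, 19 were higher and 0 lower than under vehicle (5.41% and 2.15% of all tested genes), with a median log2 difference of 1.74. Serpina1a, an alpha-1-antitrypsin gene, went from 6.05 to 6.07 CPM under vehicle to 212 to 225 CPM (log2 5.17, SE 0.11), and Fgb, the fibrinogen beta chain, from 7.08 to 7.72 to 183 to 184 CPM (log2 4.63, SE 0.15). In knockout islets all 32 were higher after STZ (30.1% of all tested genes), and 27 were higher in knockout than in control at 24 h (23.7%), with a median log2 difference of 1.94 beside 0.00 over all tested genes. Serpina3g had the largest difference of those named there, at 0.737 to 0.886 CPM in control and 69.2 to 70.2 in knockout (log2 6.42, SE 0.25), and Cfb, complement factor B, had log2 2.71 (SE 0.16). From 24 h to 4 wk, 20 fell and 1 rose in control (4.22% and 1.27% of all tested genes), and 26 fell and 1 rose in knockout (15.5% and 20.2%). Pigr, the epithelial immunoglobulin receptor, was the 1 that rose in knockout, from 241 to 243 CPM to 1411 to 1513 CPM (log2 2.60, SE 0.10). Under vehicle 26 of 32 were lower in knockout (7.68%), and at 4 wk 21 were higher and 1 lower (19.9% and 7.89%).

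Of 32 cytokines, receptors and transcription factors that act upstream of acute-phase genes, 3 were higher and 2 lower in control islets 24 h after STZ (5.41% and 2.15% of all tested genes), with a median log2 difference of -0.01 beside 0.02 over all tested genes. In knockout against control at that time 16 were higher and 2 lower (23.7% and 19.4%), with a median of 1.06. Hnf4a, a hepatocyte and epithelial nuclear receptor, was at 25.0 to 25.1 CPM in control vehicle, 49.9 to 51.3 in control STZ and 146 to 150 in knockout STZ islets (knockout against control log2 1.55, SE 0.10). Cebpa, a C/EBP factor, rose in control islets after STZ by log2 1.31 (SE 0.17). Of the interleukin-6 family receptors, Il6st, the shared signalling chain, was at 115 to 116 CPM in control and 308 to 312 in knockout at 24 h (log2 1.42, SE 0.10), and Osmr at 8.49 to 8.81 and 39.4 (log2 2.19, SE 0.16). Tnfrsf1b, a tumour necrosis factor receptor, had log2 2.78 (SE 0.17). Il6 itself, picked out after its values were seen, was low in every group, with group means of 0 to 0.386 CPM. In knockout islets 14 of these genes fell and 4 rose from 24 h to 4 wk (15.5% and 20.2% of all tested genes). At 4 wk 12 were higher and 1 lower in knockout than in control (19.9% and 7.89%), led by Il22ra1 (log2 2.44, SE 0.12), and under vehicle 1 was higher and 7 lower (1.96% and 7.68%).

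Of 22 tested receptors and partners of the members, 17 were higher and 1 lower in knockout than in control at 24 h after STZ (23.7% and 19.4% of all tested genes; median log2 difference 2.49), while 3 were higher in control after STZ than under vehicle (5.41%). Cd163, the macrophage receptor that takes up haptoglobin bound to haemoglobin, was at 0.490 to 0.649 CPM in control vehicle, 2.42 to 2.82 in control STZ 24 h and 41.8 to 44.2 in knockout STZ 24 h libraries (knockout against control log2 4.04, SE 0.30). The Fc receptor Fcgr2b was at 6.94 to 8.46 CPM in control and 54.5 to 56.3 in knockout at 24 h (log2 2.85, SE 0.16). In knockout islets 15 of the 22 fell from 24 h to 4 wk (15.5% of all tested genes), among them Cd163 (log2 -4.09, SE 0.30) and Hmox1, the haem-degrading enzyme (log2 -2.86, SE 0.26). At 4 wk 12 were higher in knockout than in control (19.9%), with Cd36, a scavenger receptor, at log2 3.44 (SE 0.32).

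Markers of other cells also differed between groups, some in the direction of the members and some against it. The summed level of 20 constitutive hepatocyte genes was 1183 to 1320 CPM in control vehicle, 6529 to 6579 in control STZ 24 h, 2796 to 2807 in control STZ 4 wk, 1039 to 1547 in knockout vehicle, 19018 to 19777 in knockout STZ 24 h and 11504 to 12636 in knockout STZ 4 wk libraries. That list includes Ttr, at 759 to 1487 CPM in every library. Without such genes, the 7 liver-restricted genes summed to 21 and 29 counts in knockout vehicle and to 364000 and 390760 counts in knockout STZ 24 h. In knockout at 24 h against control, 18 of 20 hepatocyte genes were higher (23.7% of all tested genes).

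The 14 neutrophil genes in the table summed to 2.60 to 3.70 CPM in control vehicle, 3.0 to 3.55 in control STZ 24 h, 1.0 to 1.26 in control STZ 4 wk, 0.662 to 0.801 in knockout vehicle, 46.3 to 47.8 in knockout STZ 24 h and 8.70 to 11.7 in knockout STZ 4 wk libraries. Of the 11 tested, 10 were higher in knockout than in control at 24 h after STZ (23.7% of all tested genes). In control STZ against vehicle 1 was higher (5.41%). The granule markers Camp, Elane, Mpo and Ngp were at 0 or under 0.5 CPM in every library. The 16 macrophage genes summed to 242 to 244 CPM in control STZ 24 h and 1750 to 1773 CPM in knockout STZ 24 h, with 16 of 16 higher in knockout (23.7% of all tested genes). They stood at 144 to 148, 114 to 115, 154 to 160 and 440 to 487 CPM in control vehicle, knockout vehicle, control 4 wk and knockout 4 wk. The 15 intestinal epithelial genes summed to 4793 to 4952 CPM in control vehicle, 868 to 874 in control STZ 24 h, 490 to 495 in control STZ 4 wk, 654 to 673 in knockout vehicle, 5180 to 5454 in knockout STZ 24 h and 12064 to 12499 in knockout STZ 4 wk. The adipocyte list summed to 82.8 to 83.7 CPM in control and 412 to 431 CPM in knockout at 24 h after STZ, although its defining gene Adipoq was at 0 to 0.167 CPM in every library.

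Acinar genes encode the digestive enzymes of the exocrine pancreas. Of all counts, the 16 on the list took 30.7% to 31.2% under vehicle in control libraries, against 10.3% to 10.4% in knockout libraries. At 24 h after STZ their share was 21.0% to 21.1% for control and 32.1% to 32.4% for knockout, and at 4 wk it was 17.5% to 18.0% for control and 21.4% to 21.7% for knockout. Under vehicle 16 of 16 were lower in knockout (7.68% of all tested genes), and in knockout islets 16 of 16 were higher after STZ (30.1%). In knockout against control 10 were higher at 24 h (23.7%) and 5 at 4 wk (19.9%), with 0 lower (19.4% and 7.89%). In control islets, where 8 members rose after STZ, 10 acinar genes were lower (2.15%).

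The 10 mesothelial and fibroblast genes summed to 203 to 214 CPM in control vehicle, 391.9 to 392.1 in control STZ 24 h, 136 to 156 in control STZ 4 wk, 151 to 174 in knockout vehicle, 1002 to 1018 in knockout STZ 24 h and 329 to 368 in knockout STZ 4 wk. After STZ 6 were higher in control (5.41% of all tested genes), and 9 were higher and 1 lower in knockout (30.1% and 26.2%). From 24 h to 4 wk 7 were lower in control (4.22%) and 8 in knockout (15.5%). Duct genes summed to 216 to 221 CPM in knockout vehicle and 523 to 531 in knockout STZ 24 h. Of the 10, 6 were lower in knockout under vehicle (7.68% of all tested genes). At 24 h 7 were higher and 1 lower (23.7% and 19.4%), and 8 were higher at 4 wk (19.9%). Of 10 tested stomach lining genes, 7 were lower in knockout under vehicle (7.68%) and 6 were lower in control after STZ (2.15%). In knockout against control at 24 h, 4 were higher and 3 lower (23.7% and 19.4%). Of 8 endothelial genes, 4 were higher and 2 lower in knockout at 24 h (23.7% and 19.4%). Under vehicle 0 differed (1.96% of all tested genes were higher and 7.68% lower). What part these cell types had in the levels of Saa3, Lcn2, Apcs or the other members was not tested.

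**Figure D4:**
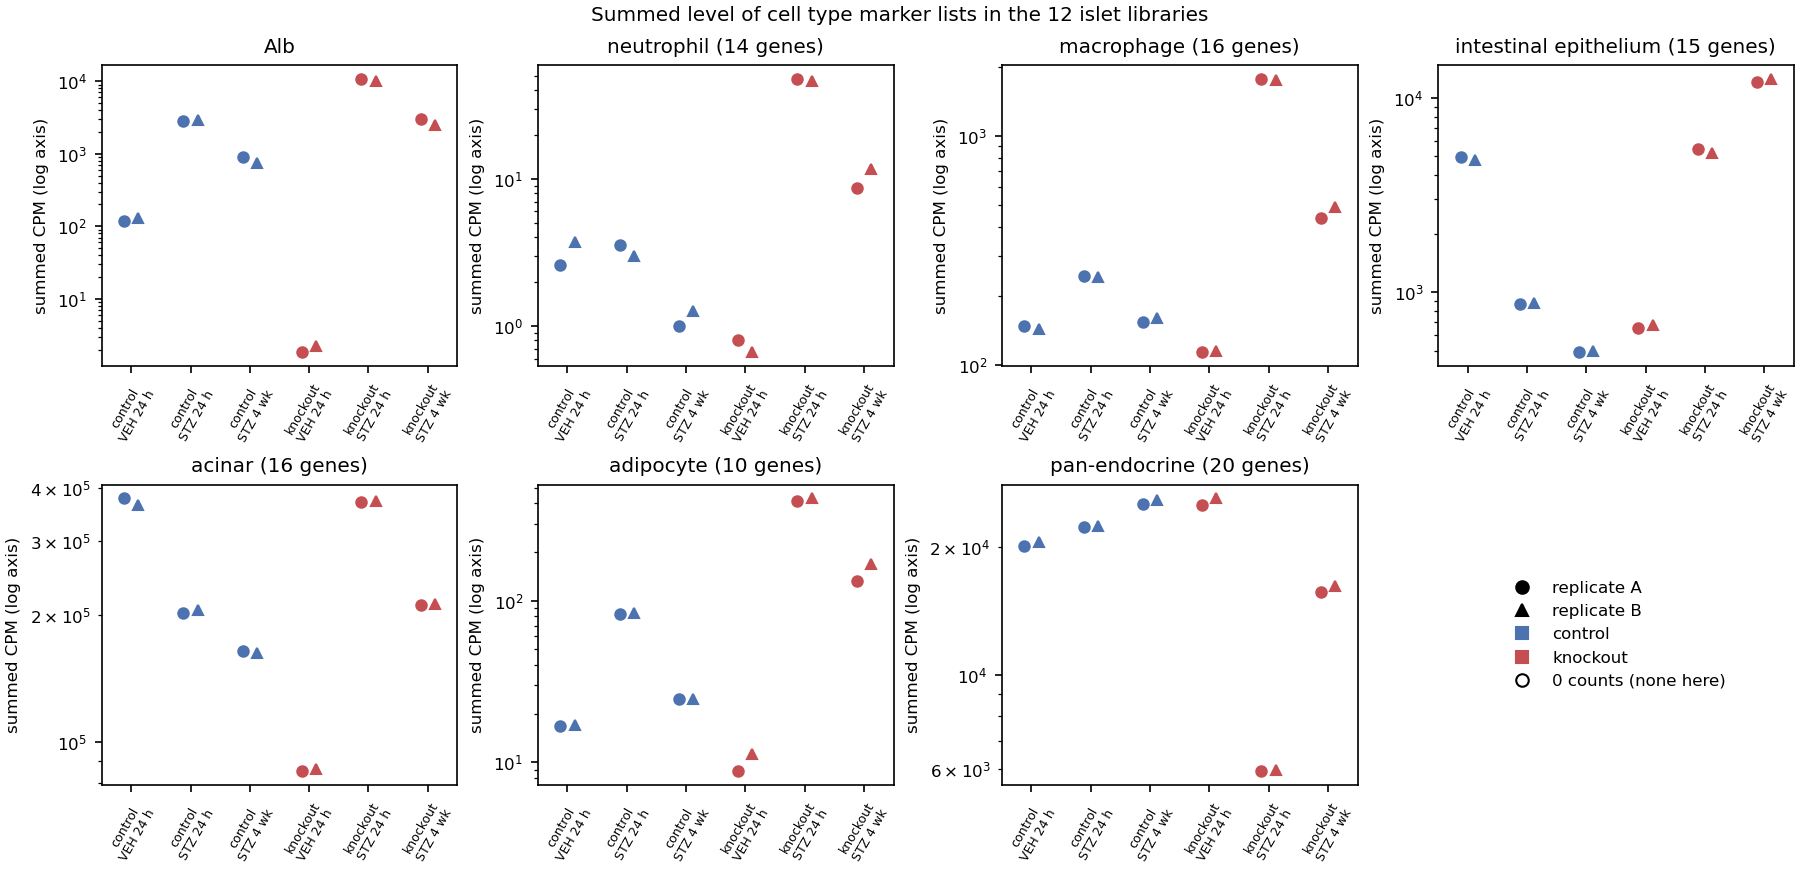
Summed CPM (log axis) of Alb and of 6 marker lists in the 12 islet libraries, with circles for A, triangles for B, blue for control and red for knockout. Alb, neutrophil, macrophage and adipocyte sums are all highest in knockout islets 24 h after STZ, whereas the intestinal sum is highest in knockout islets at 4 wk and the pan-endocrine sum is lowest in knockout islets 24 h after STZ.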

How the data were processed

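Per the labels' protocols, islet mRNA libraries were prepared with a stranded kit and sequenced as 100-base paired reads. No aligner is given in the sources used here. Transcripts were quantified with StringTie 1.3.6, per the file headers, on mm10. The authors deposited estimated counts per gene, which were rounded to whole numbers here, and per-library transcript files with TPM (length-adjusted abundance) and coverage. Each of 35119 transcripts per library had a count within 1 of coverage times length over 75, so counts are not numbers of read pairs. Totals of 101772241 to 127207523 per library set the precision. Limits from 0 counts are nominal, since 1 read pair adds more than 1 count, and they cover no error other than that of counting. No column belonged to other samples.

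Counts of 17411 of 24421 genes passing filterByExpr were fitted with edgeR 4.0.16 in R 4.3.3 (TMM scaling, robust quasi-likelihood F test, 1 mean per group over all 12 libraries, 6 residual degrees of freedom, two-sided, Benjamini-Hochberg adjustment within each comparison, threshold 0.05). The comparisons were knockout against control at each time, each pair of conditions within a genotype, and their difference between genotypes. A second fit scaled libraries to Alb and tested 17410 genes. With 2 against 2, an exact permutation test cannot go below p = 0.333. Groups at 0 counts were given nominal bounds from 3 counts over the group, since their fitted log2 values depend on the prior count. Counts were simulated for knockout against control 24 h after STZ (17411 genes, 1 dispersion, 100 well-expressed genes changed by each size). Of these, 34% of genes changed by log2 1 and 100% of those changed by log2 2 were recovered, and 9 unchanged genes were called. The real comparison called 7491 genes, so these rates need not hold for it or for genes of low count.

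The members, gene lists and marker lists were chosen with earlier results of these data known. Genes named from a list were the 4 with the lowest adjusted p in a comparison among those with a mean of at least 1 CPM. Il6, Adipoq, Camp, Elane, Mpo and Ngp, all under that level, were named outside this rule. The genes most like a member were the 3 with the highest correlation. Alternatives were other scalings (total counts, DESeq2 size factors, pan-endocrine genes, hepatocyte genes), no filter, the DESeq2 1.42.0 Wald test, a replicate block and leaving out each library. Scaling to 7 liver-restricted genes and a fit with the library letter within each condition were added after the data were seen.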

Additional observations from a re-analysis of the deposited data

Results flagged for a closer look

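The change from vehicle to STZ differed between knockout and control islets for all 10 members and Alb, by the edgeR test of the difference itself (adjusted p under 0.05), and each is given here as knockout minus control on the log2 scale. At 24 h the values were 10.77 for Saa1, 8.99 for Saa2, 6.62 for Saa3 and 11.89 for Saa4. Those of the orosomucoids were 12.70 for Orm1 and 8.69 for Orm2, and Hp had 7.59. Lcn2 had 6.73, Crp 2.83, Apcs 5.52 and Alb 7.77. At 4 wk they were 9.96 for Saa1, 8.56 for Saa2, 5.47 for Saa3 and 10.66 for Saa4. Orm1 had 11.47, Orm2 8.60 and Hp 5.98. Lcn2 had 6.68, Crp 2.59, Apcs 3.56 and Alb 7.67. With libraries scaled to Alb, Saa1, Saa4 and Orm1 were above 0 at 24 h (0.976% of all tested genes). Crp (-4.98) and Apcs (-2.26) were below 0 (90.9%), and the other 5 members did not pass. At 4 wk Saa4 and Orm1 were above 0 (0.718%) and Crp (-5.12) and Apcs (-4.10) below (91.0%). The other 6 did not pass.

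Both contrasts use the same vehicle libraries. For Saa1, Saa2, Saa4, Orm1 and Orm2, which had no count in knockout vehicle islets, the values depend on the prior count and are no bounds. The members summed to 1.44 and 1.36 CPM in knockout vehicle libraries and to 17.1 CPM in both control vehicle libraries.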

How the results depend on the processing

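Without 1 library at a time, the number of members called was 8 to 10 for knockout against control under vehicle, 7 to 8 at 24 h and 4 to 7 at 4 wk after STZ. It was 8 to 9 for control STZ 24 h against vehicle, 7 to 10 for the control fall from 24 h to 4 wk and 9 to 10 for the difference of changes at 4 wk, and did not move in the other 5 comparisons. Relative to Alb the ranges were 6 to 8 (knockout against control, vehicle), 3 to 5 (24 h), 2 to 5 (4 wk), 4 to 6 (control STZ 24 h against vehicle) and 6 to 7 (the same in knockout).

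With the hepatocyte list in place of Alb, 9 members were called for knockout against control at 24 h (7 higher, 2 lower; 7.28% and 70.3% of all tested genes), 6 at 4 wk (6 lower; 77.8%), 10 for control STZ against vehicle (8 higher, 2 lower; 2.22% and 86.0%) and 10 for knockout STZ against vehicle (10 higher; 6.29%). Log2 values that changed sign, among those past the threshold on either scale, were -3.53 for Saa3, -4.87 for Hp, -3.96 for Lcn2, -1.65 for Crp and -1.91 for Apcs (knockout against control, vehicle). They were also 1.10 for Crp and 1.13 for Apcs (control STZ), 3.16 for Saa3, 1.86 for Lcn2, 2.40 for Crp and 5.14 for Apcs (knockout STZ), and -1.07 for Crp (knockout, 24 h to 4 wk). In knockout vehicle libraries Alb was 0.119% and 0.214% of that list's counts, and the list holds Ttr and other genes that islet or intestinal cells also express. With the 7 liver-restricted genes, 3 members were called for knockout against control at 4 wk (1 higher, 2 lower; 6.73% and 71.9% of all tested genes). On that scale 2 of 60 single-gene results relative to Alb changed sign, against 12 with the hepatocyte list. These were Saa1 at -0.85 in control STZ and Hp at -1.32 in knockout STZ. With pan-endocrine scaling Saa2 was at 1.47 for knockout against control at 24 h. The cause of these shifts was not tested.

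Total-count scaling moved the median of all genes by 0.53 for knockout against control under vehicle, where 7205 genes were called in place of 1679, and by 0.31 for control STZ (2634 in place of 1317). It called 4307 in place of 1565 for control 4 wk against vehicle, 10144 in place of 6558 and 8203 in place of 4538 for the differences of changes at 24 h and 4 wk. Pan-endocrine scaling called 3356 genes for knockout against control under vehicle, 15025 in place of 7491 at 24 h and 9108 in place of 4839 at 4 wk.

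The labels name no litter, batch or day behind the letters A and B, and the gaps between A and B correlated between genotypes by 0.40 under vehicle, 0.18 at 24 h and 0.82 at 4 wk, against -0.74 to 0.52 for other pairs of groups. With a replicate block, 6 members were called for knockout against control at 4 wk in place of 7, with Crp at adjusted p = 0.0648. Relative to Alb, Lcn2 was at 0.0576 at 24 h and 0.0663 at 4 wk. The other 178 of 181 single-gene results stayed on their side of the threshold. With the letter as a term within each condition (replicate block within each condition, 3 residual degrees of freedom, chosen after seeing these correlations), Saa1 was called lower for knockout against control at 4 wk (-0.68). Relative to Alb, Hp passed at all 3 times (1.04, 0.86 and -0.67) and Crp at 24 h (-0.64), and under vehicle 3 members at 0 in knockout were called lower in place of 4. That fit called 3533 genes in place of 1679 under vehicle and 8184 in place of 4839 at 4 wk.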

Other observations

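Orm3, the third orosomucoid gene, which lies between Orm1 and Orm2, was at 0 in both vehicle groups and in control islets 4 wk after STZ. It was at 0.0789 and 0.200 CPM in control and 1.20 and 0.860 CPM in knockout islets 24 h after STZ, far below Orm1 and Orm2 in the same libraries. Its transcript shared no stretch of 100 bases with either.

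In knockout vehicle islets, where 5 members had no count, all exons of Lcn2, Saa3 and Crp had coverage. Mean coverage of Lcn2 was between 2.09 and 7.16 over all 6 exons, that of Saa3 between 1.94 and 4.72 over all 4 exons, and that of Crp was 2.52 and 4.30 over its 2 exons. Apcs was at 0.383 ± 0.54 over exon 1 and 1.01 ± 0.13 over exon 2, and Hp ranged from 0.169 to 2.20 over its 5 exons (SD, n = 2), with exon 4 at 0 in library A.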
